A study of Homo sapiens with 10 samples.

Results

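The 8 genes described here carry copper across membranes, hand it on inside the cell, or form channels through which platinum drugs can enter. They are SLC31A1, SLC31A2, ATP7A, ATP7B, ATOX1, CCS, LRRC8A and LRRC8D, a list of names matched by Ensembl identifier to 8 of the 61533 genes in the count tables. All 8 had enough counts to be tested. Bulk RNA was sequenced from T24, an established human bladder cancer line, and from its cisplatin-resistant derivative T24R2, obtained by treating T24 with the drug repeatedly. Each line had 5 libraries, labelled day 3, from cells grown in RPMI medium with serum. According to the methods of the study, T24R2 is maintained with cisplatin, whereas the labels list the same drug-free medium for both lines, so the line and the presence of the drug cannot be told apart. Nothing in the labels says that the replicates were separate cultures, so the p-values measure the spread between these libraries.

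Copper enters human cells mainly through SLC31A1 (CTR1), a small trimeric channel in the plasma membrane. The metallochaperone ATOX1 takes the ion to the pumps ATP7A and ATP7B, which load copper enzymes in the secretory pathway and export any excess, and CCS delivers it to superoxide dismutase. Cisplatin binds to the thiol and methionine groups of the same proteins, and they have long been studied as routes for platinum into and out of tumour cells. LRRC8 proteins form the volume-regulated anion channel, of which LRRC8A is the obligatory subunit, and channels that contain LRRC8D admit cisplatin.

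Libraries held 9257843 to 10840954 counted fragments, and mitochondrial genes took 2.35% to 2.97% of them. Levels are given as CPM, the count of a gene relative to its TMM-scaled library size, with the SD over the libraries of a line (n = 5). Of the urothelial markers, KRT7 (2242 ± 70.2 CPM in T24 and 1370 ± 64.6 in T24R2) and KRT18 (1112 ± 87.7 and 691 ± 30.3) were abundant in both lines. GATA3 went from 22.1 ± 2.004 to 0.214 ± 0.210 CPM and UPK2 from 9.90 ± 0.960 to 2.74 ± 0.938, whereas UPK1B, UPK3A and KRT20 had 3 counts or fewer in every library. The 3 endothelial markers summed to 225 to 278 CPM in T24 and 1.604 to 2.50 in T24R2. Most of the T24 sum came from CDH5 alone, PECAM1 was far lower, and VWF was too low to be tested. The sum therefore shows the level of 1 gene and not of the endothelial list. The 6 fibroblast markers summed to 8.86 to 11.2 and 0.954 to 2.02 CPM, with COL1A2, DCN and LUM at 3 counts or fewer throughout. Most of that sum in T24 came from COL1A1 and PDGFRB. Leukocyte and erythroid markers reached at most 2.69 and 0.178 CPM. The part of these markers in the results below was not tested. In bulk RNA, fewer cells that express a gene and less of its RNA per cell cannot be told apart.

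Calls followed the limits of the study, namely an adjusted p below 0.05 together with a log2 fold change beyond 0.5 in either direction. Of the 8 genes, 1 was called higher in T24R2, namely ATP7A, and 0 were called lower, although 7 had an adjusted p under 0.05 (quasi-likelihood test of edgeR, Benjamini-Hochberg adjustment), a number that was 4 without scaling beyond library size. Across all 16181 genes tested, 24.9% were called higher and 26.5% lower, 51.4% in all, and 75.5% had an adjusted p under 0.05. DESeq2 without shrinkage also called 1 higher and 0 lower. The median log2 fold change of the 8 was -0.09, against 0.01 over all tested genes. The lines did not overlap in CPM for 4 of the 8 genes (ATP7A, CCS, LRRC8A and LRRC8D), beside 61.2% of all tested genes. Where they do not overlap, the exact two-sided permutation test gives p = 0.00794 whatever the gap, so it adds nothing to that statement. By the same exact permutation test, without adjustment, p was 0.0238 for SLC31A1, 0.825 for SLC31A2, 0.0397 for ATP7B and 0.0159 for ATOX1.

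**Figure D1:**
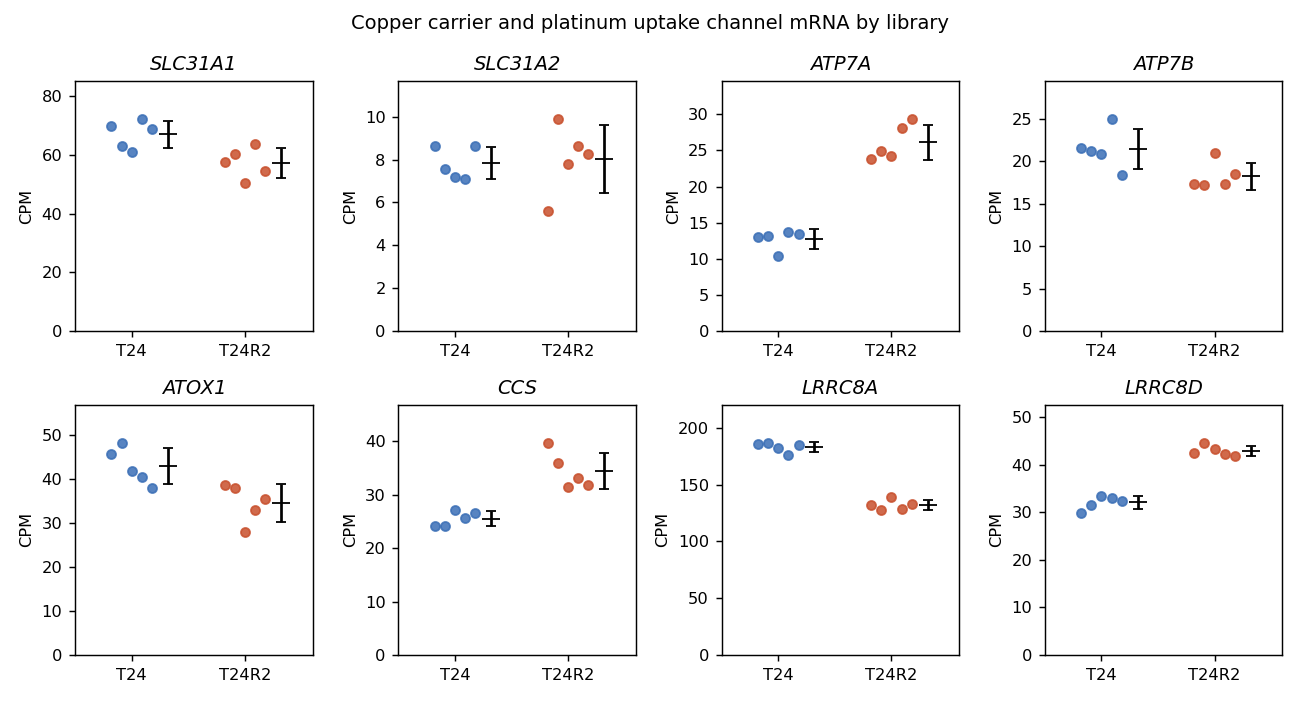
CPM of each of the 8 genes (y axes from 0, a scale of its own for each gene) in the 5 libraries of T24 (blue) and of T24R2 (red), with the mean and SD in black. ATP7A lies at 10.4 to 13.7 CPM in T24 and 23.9 to 29.3 in T24R2, LRRC8A lies at 176 to 187 and 128 to 139 CPM, and the T24 range of SLC31A2 lies inside that of T24R2.

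SLC31A1 (ENSG00000136868.11) lies on the plus strand of chromosome 9 of hg38, 113221544 to 113264492, and encodes the high-affinity copper importer. ATP7A (ENSG00000165240.22), on the plus strand of chromosome X from 77910690 to 78050395, encodes the copper pump whose loss causes Menkes disease. The 250 bases before their RefSeq starts are shown because these are the main route in and the pump that was called higher. The sequences are from RefSeq (GRCh38.p14, plus strand), at chr9:113221294-113221543 and chrX:77910443-77910692, and the latter ends just inside the start that the count tables give for ATP7A. Capitals mark a GC box (GGGCGG, the core bound by SP1), a metal response element (TGCACNC or TGCGCNC, the core bound by MTF1) or an antioxidant response element (TGACNNNGC, bound by NRF2), searched on both strands.
SLC31A1: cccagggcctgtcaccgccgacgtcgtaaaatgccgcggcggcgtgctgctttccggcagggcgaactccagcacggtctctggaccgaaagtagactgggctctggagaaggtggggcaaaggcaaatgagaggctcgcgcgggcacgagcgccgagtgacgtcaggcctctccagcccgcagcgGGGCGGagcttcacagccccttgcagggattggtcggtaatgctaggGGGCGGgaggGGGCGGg
ATP7A: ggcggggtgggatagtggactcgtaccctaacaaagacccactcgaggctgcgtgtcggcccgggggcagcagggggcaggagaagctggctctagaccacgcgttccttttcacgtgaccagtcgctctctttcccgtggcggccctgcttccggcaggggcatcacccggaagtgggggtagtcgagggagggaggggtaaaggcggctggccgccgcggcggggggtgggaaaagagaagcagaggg

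The SLC31A1 window holds 3 GC boxes and neither of the other motifs, and the ATP7A window holds none of the 3 motifs. Promoters of 7 of the 8 genes were matched, all but SLC31A2. In the first window of each gene, the GC box was found in 5 of 7, the metal response element in 2 of 7, namely ATOX1 and CCS, where matches on both strands overlap, and the antioxidant response element in 1 of 7, that of CCS. Windows at further RefSeq starts were not counted here, and among them that of ATP7B numbered 2 holds 2 metal response elements and that of LRRC8D 1. Among 35116 promoter windows of the same length, 42.6% hold the GC box, 24.8% the metal response element and 10.9% the antioxidant response element. These are matches of letters in a window and not sites shown to be bound.

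SLC31A1 mRNA stayed within the fold change minimum. The T24 replicates 1 to 5 had 69.7, 63.1, 61.1, 72.2 and 68.8 CPM, and the T24R2 replicates 57.5, 60.2, 50.5, 63.9 and 54.4 CPM. All but 1 of the T24R2 libraries lay under the lowest T24 library, so the lines overlap by that library. The T24R2 mean, 57.3 ± 5.18 CPM, was 85.5% ± 7.72 of the T24 mean of 67.0 ± 4.66 (SD, n = 5 each). SLC31A1 had a log2 fold change of -0.22 (standard error 0.06, 95% interval -0.35 to -0.09), with an adjusted p of 0.00191 from edgeR's quasi-likelihood test. Without scaling beyond library size it was -0.06, with an adjusted p of 0.399 by the same edgeR test.

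SLC31A2 (ENSG00000136867.11, chromosome 9, 113150976 to 113164140, plus strand) encodes CTR2, a relative of SLC31A1 found mostly on intracellular membranes. Its T24 libraries had 7.10 to 8.64 CPM (61 to 114 counts over all 10 libraries) and its T24R2 libraries 5.60 to 9.88 CPM, a range that contains that of T24. The log2 fold change was 0.04 (95% interval -0.27 to 0.34, adjusted p = 0.825 by edgeR's quasi-likelihood test). FKBP15 on the opposite strand covers 64.0% of its exon bases and has a mean of 680 counts per library against 80.1. The library kit is not described as strand-specific, so a part of the SLC31A2 counts may belong to FKBP15, which itself had a log2 fold change of 0.04. Measured per kilobase of exon, SLC31A2 made up 19.6% ± 1.49 of the sum of both carriers in T24 and 22.5% ± 3.41 in T24R2 (SD, n = 5, exact two-sided permutation test, p = 0.111). Without T24R2 replicate 1, whose share was 16.8%, the lines no longer overlapped (difference 4.36 percentage points, exact permutation p = 0.00794 in that smaller comparison). With any other single library left out, the same exact permutation test gave p = 0.111 to 0.214.

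The list of copper uptake carriers and metalloreductases, the latter being enzymes that reduce copper and iron, held 5 genes. Of these, 4 were tested, 2 called higher and 0 lower (24.9% and 26.5% over all tested genes), with a median log2 fold change of 0.79. Both calls were metalloreductases. STEAP2 passed the count filter through its T24R2 counts, so the median of these 4 genes depends on that line. STEAP2 rose from 0.622 ± 0.235 to 12.3 ± 1.61 CPM (4.28 on the log2 scale, SE 0.22, adjusted p = 4.3e-20 by edgeR's quasi-likelihood test), with at most 8 counts in any T24 library. STEAP3 rose from 8.72 ± 1.40 to 25.2 CPM, a log2 fold change of 1.53, and a gene on the opposite strand covers 10.96% of its exon bases. STEAP4 was too low to be tested, at 0 counts in T24 and at most 5 in T24R2.

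ATP7A was the gene that rose. The T24 replicates 1 to 5 had 13.1, 13.2, 10.4, 13.7 and 13.4 CPM, and the T24R2 replicates 23.9, 24.97, 24.3, 28.1 and 29.3 CPM. Every T24R2 library lay above every T24 library, with p = 0.00794 in a two-sided exact permutation test, the lowest value possible for groups of this size. The mean went from 12.7 ± 1.33 to 26.1 ± 2.44 CPM (SD, n = 5 each), a ratio of 2.05. The log2 fold change was 1.03 (standard error 0.10, 95% interval 0.83 to 1.23, adjusted p = 4.5e-12 by edgeR's quasi-likelihood test). In absolute size it exceeded 75.1% of all tested genes. ATP7A had 91 to 315 counts per library. PGAM4, an intronless gene inside ATP7A on the opposite strand, shares 2.45% of its exon bases with a mean of 4.60 counts, and with those counts taken off the log2 fold change was 1.101.

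The 5 tested genes within 1 Mb of ATP7A had a median log2 fold change of 0.35, and 0 of them exceeded ATP7A. COX7B, a subunit of cytochrome c oxidase that ends before ATP7A starts, had a log2 fold change of 0.35. PGK1, a glycolytic enzyme whose annotated span overlaps ATP7A, was called lower at -0.50. PGK1 shares 97 exon bases with ATP7A on the same strand, and it had a mean of 8008 counts per library against 201 for ATP7A. The 3 genes whose log2 CPM over the 10 libraries, centred on the T24 mean, lay closest to ATP7A were TCEAL1, IDH3A and ZNF281, at root mean square distances of 0.09 each. TCEAL1 went from 13.0 to 26.8 CPM, close to ATP7A in level also.

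ATP7B (ENSG00000123191.16, chromosome 13, 51930436 to 52012125, minus strand) encodes the pump whose loss causes Wilson disease. Its T24 replicates 1 to 5 had 21.6, 21.3, 20.9, 24.95 and 18.4 CPM, and its T24R2 replicates 17.3, 17.2, 20.9, 17.3 and 18.5 CPM. T24R2 libraries were mostly lower, with an overlap from 18.4 to 20.9 CPM. The log2 fold change of ATP7B was -0.23 (95% interval -0.43 to -0.04, adjusted p = 0.0284 by edgeR's quasi-likelihood test), under the minimum. It was -0.07 without scaling beyond library size (edgeR adjusted p = 0.509) and -0.16 with upper-quartile scaling (edgeR adjusted p = 0.130), and the adjusted p was 0.0619 to 0.107 without T24 replicate 4 or T24R2 replicate 1, 2 or 4. The 18 tested genes within 1 Mb had a median of -0.09.

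The balance of the pumps therefore differed between the lines. Counted per kilobase of exon within each library, a measure on which library scaling has no bearing, ATP7B made up 71.2%, 70.7%, 75.0%, 73.2% and 67.2% of the sum of ATP7A and ATP7B in T24 replicates 1 to 5. In the T24R2 replicates it made up 52.1%, 50.7%, 56.3%, 47.9% and 48.5%. ATP7B was thus the larger share in every T24 library, and the pumps were near parity in T24R2. The means were 71.5% ± 2.94 and 51.1% ± 3.34 (SD, n = 5 each), a difference of -20.4 percentage points (exact two-sided permutation test, p = 0.00794, 0.0106 after Benjamini-Hochberg adjustment over the 4 shares tested). With the length of the canonical transcript in place of all annotated exons, the shares were 68.3% ± 3.12 and 47.4% ± 3.35.

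ATP7A and ATP7B were also placed in a list with the CCC complex, the COMMD, CCDC22, CCDC93 and VPS35L proteins that return copper pumps from endosomes. All 15 genes of this list were tested, and 6 were called higher and 2 lower (24.9% and 26.5% over all tested genes). Their median log2 fold change was 0.37. Besides ATP7A, the largest rises were those of VPS35L, from 43.7 ± 4.08 to 83.1 CPM (log2 fold change 0.92), and COMMD8, from 14.0 ± 1.87 to 25.9 CPM (0.88). Opposite-strand genes cover 17.2% of the exon bases of VPS35L. COMMD9 and COMMD2 fell, with log2 fold changes of -0.68 and -0.56. COMMD1, the member first tied to copper excretion, was at 10.9 ± 1.68 CPM in T24 and 14.1 in T24R2 (log2 fold change 0.37, adjusted p = 0.0122 by edgeR's quasi-likelihood test), under the minimum.

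ATOX1 (ENSG00000177556.12, chromosome 5, 151742316 to 151772532, minus strand) delivers copper to ATP7A and ATP7B. The T24 replicates 1 to 5 had 45.8, 48.3, 41.9, 40.5 and 38.1 CPM, and the T24R2 replicates 38.7, 38.0, 27.9, 33.0 and 35.6 CPM. The lines overlapped only between 38.1 and 38.7 CPM. On the log2 scale ATOX1 differed by -0.31 (standard error 0.08, 95% interval -0.47 to -0.15, adjusted p = 0.00079 by edgeR's quasi-likelihood test), under the minimum, and -0.14 without scaling beyond library size (edgeR adjusted p = 0.105). G3BP1 on the opposite strand covers 2.48% of its exon bases but has 2762 counts per library against 388, so its counts could not be taken off.

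CCS (ENSG00000173992.9, chromosome 11, 66593153 to 66606019, plus strand) inserts copper into superoxide dismutase 1. The T24 replicates 1 to 5 had 24.1, 24.2, 27.2, 25.6 and 26.6 CPM, and the T24R2 replicates 39.7, 35.9, 31.5, 33.2 and 31.9 CPM. All T24R2 libraries lay above all T24 libraries (exact two-sided permutation test, p = 0.00794). The log2 fold change was 0.43 (standard error 0.08, 95% interval 0.27 to 0.60, adjusted p = 8.7e-06 by edgeR's quasi-likelihood test), with T24R2 at 135% ± 13.4 of T24. CCS stayed under the minimum with TMM scaling but passed it without scaling (0.60) and with upper-quartile scaling (0.51). Around CCS, 24 of the 77 tested genes within 1 Mb were called lower and 6 higher, beside 26.5% and 24.9% of all tested genes. Of the 77, 9 exceeded CCS.

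SOD1, the protein that CCS loads, was called higher, with 128 ± 6.07 CPM in T24 and 190 CPM in T24R2 (log2 fold change 0.57, standard error 0.05, adjusted p = 3.5e-14 by edgeR's quasi-likelihood test). It was the 1 gene called of the 3 tested in the list of chaperones and superoxide dismutases, next to ATOX1 and CCS. Over all tested genes, 51.4% were called in either direction. SOD3 had 0 counts in every library, and the identifier of SOD2 was not matched.

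**Figure D2:**
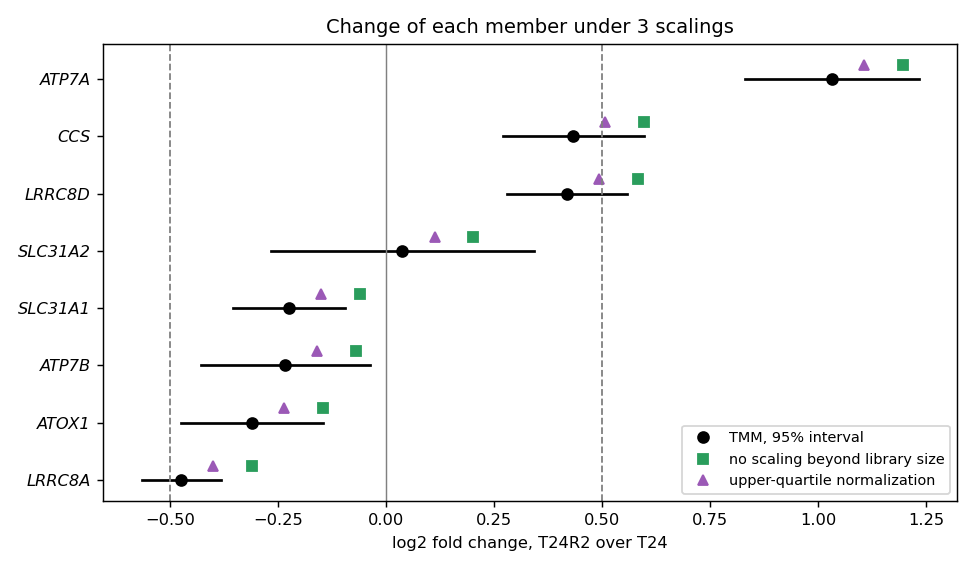
Log2 fold change of T24R2 over T24 (x axis) for each of the 8 genes (y axis), as the TMM estimate with its 95% interval (black), without scaling beyond library size (green squares) and with upper-quartile normalization (purple triangles). Dashed lines mark the minimum of 0.5 in each direction. ATP7A lies past it under all 3 scalings, CCS under 2 and LRRC8D under 1, and the intervals of SLC31A1, ATP7B, ATOX1 and SLC31A2 lie within it.

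LRRC8A (ENSG00000136802.12, chromosome 9, 128882133 to 128918039, plus strand), without which no volume-regulated anion channel forms, was the most abundant of the 8 in CPM. The T24 replicates 1 to 5 had 186, 187, 183, 176 and 185 CPM, and the T24R2 replicates 132, 128, 139, 129 and 133 CPM. The lines were far apart relative to their spread, with 176 CPM as the lowest T24 value and 139 as the highest of T24R2 (exact two-sided permutation test, p = 0.00794). T24R2 was at 72.1% ± 2.46 of T24 (SD, n = 5). The log2 fold change of -0.47 (standard error 0.04, 95% interval -0.56 to -0.38, adjusted p = 3.2e-12 by edgeR's quasi-likelihood test) fell short of the minimum of 0.5, and its interval spans that limit. It was -0.31 without scaling beyond library size. Within 1 Mb, 15 of 58 tested genes were called lower and 6 higher, beside 26.5% and 24.9% of all tested genes.

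LRRC8D (ENSG00000171492.14, chromosome 1, 89821014 to 89936611, plus strand) went the other way. The T24 replicates 1 to 5 had 29.9, 31.6, 33.5, 33.0 and 32.3 CPM, and the T24R2 replicates 42.4, 44.6, 43.3, 42.1 and 41.8 CPM. The ranges of the lines were apart (two-sided exact permutation p = 0.00794), and T24R2 was at 134% ± 3.47 of T24. For LRRC8D the log2 fold change was 0.42 (standard error 0.07, 95% interval 0.28 to 0.56, adjusted p = 8.8e-07 by edgeR's quasi-likelihood test), and 0.58 without scaling beyond library size, which is past the minimum.

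Of the other 3 subunits, which join LRRC8A in channels of different substrate choice, LRRC8C was called lower. It lies next to LRRC8D on chromosome 1 (89633072 to 89769903) and went from 56.8 to 68.5 CPM in T24 to 28.3 to 38.8 CPM in T24R2. LRRC8C thus differed by -0.89 on the log2 scale (SE 0.07, adjusted p = 6.5e-14 by edgeR's quasi-likelihood test), opposite in sign to its neighbour LRRC8D. LRRC8B had 7.25 ± 1.68 CPM in T24 and 9.56 ± 0.733 in T24R2 (adjusted p = 0.0146 by edgeR's quasi-likelihood test), under the minimum at 0.40. LRRC8E had 14.1 ± 2.28 and 16.7 ± 1.57 CPM (log2 fold change 0.24, adjusted p = 0.0523 by the same edgeR test), with 74.3% of its exon bases covered from the opposite strand. In all, 0 of the 5 subunits were called higher and 1 lower, beside 24.9% and 26.5% of all tested genes.

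The make-up of LRRC8 mRNA was computed within each library from counts per kilobase of exon. LRRC8A held 66.2% to 71.2% of the subunit sum in T24 libraries and 59.2% to 61.3% in T24R2, and was the largest share in all 10. LRRC8D held 12.3%, 12.5%, 13.5%, 13.3% and 12.7% in T24 replicates 1 to 5 and 21.1%, 22.2%, 20.04%, 20.8% and 20.7% in the T24R2 replicates. It was second to LRRC8A on this scale, but with canonical transcript lengths LRRC8C (13.7% ± 0.905) was above LRRC8D (12.7% ± 0.479) in T24. The mean LRRC8D share rose from 12.9% ± 0.512 to 21.0% ± 0.784, by 8.11 percentage points, and that of LRRC8A went from 68.6% ± 1.81 to 60.3% ± 1.02, by -8.36 points (SD, n = 5 each, exact two-sided permutation tests, p = 0.00794 and 0.0106 after adjustment over the 4 shares). LRRC8C, at 10.5% ± 0.715 in T24 and 6.86% ± 0.739 in T24R2, did not overlap between the lines either. A share shows unequal change among the subunits and not which of them changed. With opposite-strand counts taken off, the difference was 9.47 points for LRRC8D and -6.78 for LRRC8A. That step removes the whole count of an overlapping gene, not only the part in shared bases. For LRRC8E this was a mean of 149 counts from 156, which leaves little of it in the sum, and for LRRC8B 55.1 from 85.3. With counts not divided by length, the difference was -4.99 points for LRRC8A.

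**Figure D3:**
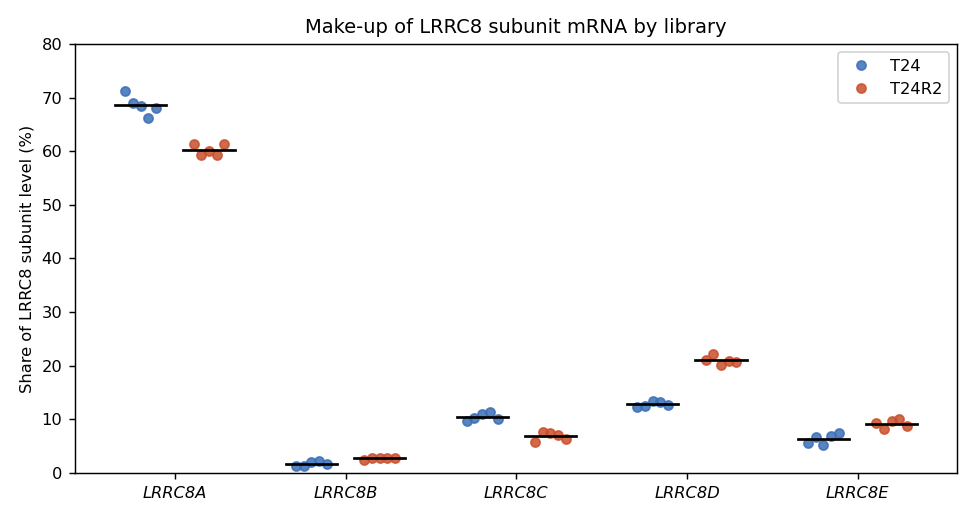
Share of each LRRC8 subunit in the summed subunit level (y axis, percent of counts per kilobase of exon within a library) in the 5 libraries of T24 (blue) and of T24R2 (red), with the mean as a bar. LRRC8D lies at 12.3% to 13.5% in T24 and 20.04% to 22.2% in T24R2, and LRRC8A at 66.2% to 71.2% and 59.2% to 61.3%.

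Ordered by CPM per kilobase of annotated exon, LRRC8A was highest in both lines (35.2 ± 0.827 in T24 and 25.4 ± 0.868 in T24R2). In T24 it was followed by SLC31A1 (13.0 ± 0.906) and CCS (11.9 ± 0.649), whose ranges overlap, then by ATOX1, LRRC8D, SLC31A2, ATP7B and ATP7A, each apart from the next. In T24R2 the order was LRRC8A, CCS (16.1, range 14.7 to 18.5), SLC31A1 (11.1 ± 1.01), LRRC8D, ATOX1, SLC31A2, ATP7B and ATP7A, and the ranges of the pumps overlapped (0.970 ± 0.0846 and 0.928 ± 0.0866). This scale depends on the gene models. The annotated exons of ATP7A add up to 28126 bases against 8492 in its canonical transcript, and those of ATOX1 to 5239 against 471. With canonical lengths ATOX1 came first in both lines, at 91.2 ± 8.66 CPM per kilobase in T24 and 73.5 ± 9.28 in T24R2, and the pumps still came last in T24.

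Lists of 70 genes for copper and platinum handling, the 8 included, held 57 tested genes, of which 20 were called higher (35.1%) and 12 lower (21.1%), with a median log2 fold change of 0.16. Over all tested genes the shares were 24.9% and 26.5%. The lists were chosen with earlier results of these data known, and the difference between these shares was not tested. STEAP2 and SLC47A2, both called higher, had at most 8 and 2 counts in any T24 library and passed the count filter through T24R2. With a mean of at least 100 counts required, 14 list genes were called higher and 11 lower.

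Of the secretory copper enzymes, which receive copper from the pumps on their way through the Golgi apparatus, 8 of 14 genes were tested. Of these, 4 were called lower and 1 higher (26.5% and 24.9% over all tested genes), with a median log2 fold change of -1.09. LOX, which crosslinks collagen and elastin, fell from 93.8 ± 11.7 to 11.8 CPM (log2 fold change -2.98, standard error 0.09, adjusted p = 2.1e-28 by edgeR's quasi-likelihood test). LOXL1 fell from 13.1 ± 0.938 to 2.36 CPM (-2.47), and PAM, which amidates peptide hormones, from 192 ± 11.6 to 40.0 CPM (-2.26). CP, which encodes the copper protein ceruloplasmin, fell from 21.4 ± 2.97 to 5.42 CPM (-1.98), and HPS3 on the opposite strand covers 20.1% of its exon bases with more counts than CP. LOXL2, the most abundant of the list, had 903 ± 33.1 CPM in T24 and 884 in T24R2, a log2 fold change of -0.03 (95% interval -0.11 to 0.05). The 1 gene called higher, AOC3, had low counts, at most 26 in a library. TYR, HEPHL1 and AOC1 had 0 counts in every library, and HEPH 1 count at most.

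All 10 genes for copper delivery to cytochrome c oxidase in mitochondria were tested, with a median of 0.12. Among them 3 were called higher and 2 lower, beside 24.9% and 26.5% of all tested genes. COX17, the chaperone that brings copper to the assembly factors SCO1 and COX11, fell from 26.4 ± 1.73 to 11.5 CPM (log2 fold change -1.20, standard error 0.10, adjusted p = 6.4e-14 by edgeR's quasi-likelihood test). COX19 fell as well, by 0.81 on the log2 scale. COA6 rose from 14.0 ± 1.04 to 27.8 CPM (0.99), COX16 from 1.52 ± 0.559 to 2.92 CPM (0.92) and CMC1 from 27.8 ± 1.81 to 46.8 CPM (0.75). Opposite-strand genes cover 33.4% of the exon bases of CMC1 and 9.05% of those of COA6. SCO1 and COX11 themselves were not called, with log2 fold changes of 0.12 each, and SLC25A3, the carrier of copper and phosphate into the matrix, was at 292 ± 14.1 and 349 CPM (0.26).

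In the list of lipoylation enzymes and their targets, on which copper-dependent cell death acts, all 11 genes were tested, with a median of 0.51. Among them 6 were called higher and 3 lower, beside 24.9% and 26.5% of all tested genes. The lipoylation genes LIPT1, GCSH and LIAS rose, with log2 fold changes of 1.78, 1.64 and 0.79, from 3.24 ± 0.968, 0.908 ± 0.363 and 8.68 ± 0.988 CPM in T24. Opposite-strand genes cover 11.9% of the exon bases of LIPT1, and MITD1 among them has more counts than LIPT1. FDX1, the ferredoxin that acts upstream of lipoylation, fell from 31.0 ± 3.12 to 17.5 CPM (-0.82). The genes of the lipoylated complexes went both ways. DLD rose from 90.9 ± 5.13 to 158 CPM (0.79) and DBT from 32.1 ± 2.61 to 45.6 CPM (0.51), whereas DLAT fell from 76.4 ± 4.66 to 40.1 CPM (-0.93, with 13.3% of its exon bases covered from the opposite strand) and PDHA1 from 105 ± 3.83 to 72.5 CPM (-0.54), with 21.2% covered.

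Of 5 organic cation transporters that accept platinum compounds, 1 was tested, and it passed the count filter through its T24R2 counts. SLC47A2, which encodes the extruder MATE2, had at most 2 counts in any T24 library and 6.06 CPM in T24R2, so it was at least 18.8-fold higher in T24R2, taking 3 counts per library as the floor. SLC22A2 and SLC47A1 had 2 counts at most in any library, and SLC22A3 at most 7.

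**Figure D4:**
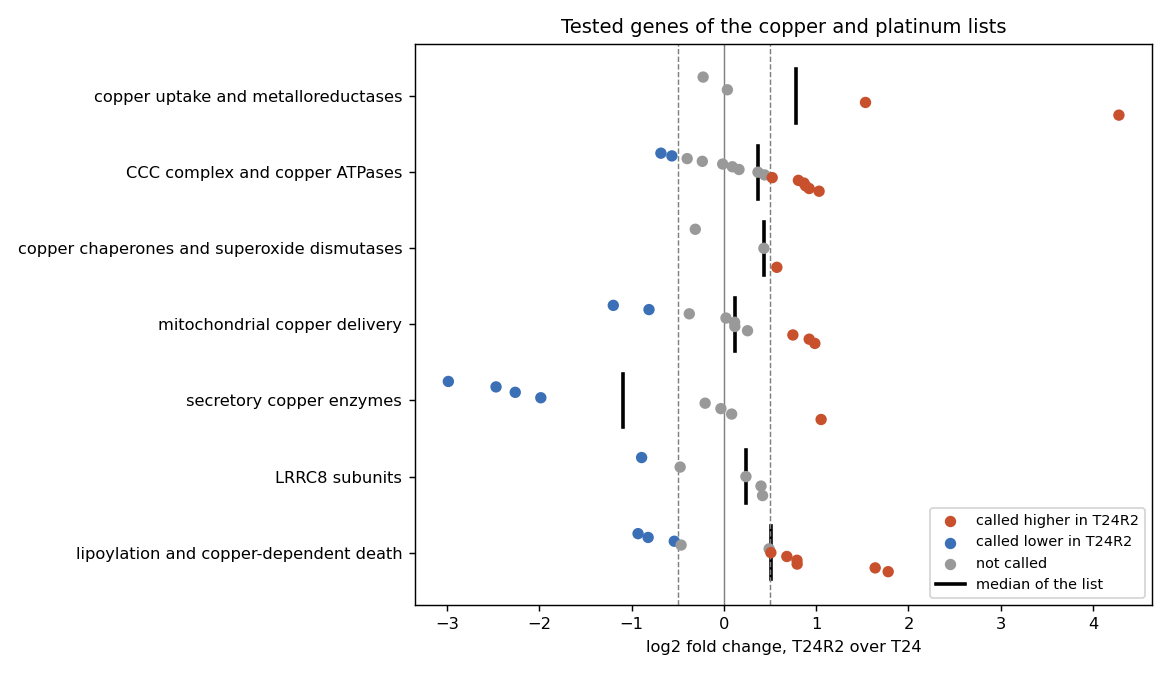
Log2 fold change of T24R2 over T24 (x axis) for the tested genes of the copper and platinum lists (y axis), called higher (red), lower (blue) or not called (grey), with the median of each list as a bar and the minimum of 0.5 as dashed lines. SLC47A2, known only as a lower bound, is left out. LOX, LOXL1, PAM and CP lie furthest to the left and STEAP2 furthest to the right.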

How the data were processed

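Paired reads were mapped by the authors to hg38 using STAR 2.7.0. Duplicates and multiply mapped reads were discarded (samtools 1.10), and featureCounts 2.0.1 assigned the fragments to GENCODE 39 genes under strand option 1. The deposited values are raw counts per gene and library, without normalization. Genes with annotated pseudogene copies (GCSH, COX17, SOD1 and LIPT1) may be undercounted among uniquely mapped reads, and duplicate removal may lower abundant transcripts.

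The lines were compared over all genes in R 4.3.3 with edgeR 4.0.16 (filterByExpr, TMM, glmQLFit, glmQLFTest, Benjamini-Hochberg). CPM used TMM-scaled library sizes. Intervals are 95% intervals of the fit. Exact two-sided permutation tests were applied to single CPM values and shares. No row lacked a gene identifier. Of 61533 identifiers, 61415 matched a symbol. Opposite-strand overlaps came from the exon coordinates in the tables, and canonical transcript lengths from GENCODE release 44 on the same build. Tools were Python 3.11.15, pandas 2.3.3, numpy 2.4.6, SciPy 1.17.1 and matplotlib 3.10.9. Alternatives used DESeq2 1.42.0 and limma 3.58.1. The steps were tested on simulated counts. Totals of 9257843 to 10840954 set the precision, and counting floors cover counting error only.

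The 8 genes and the lists were chosen with earlier results of these data known. Named list genes are up to 3 called genes with the largest change in each direction, undetected genes, nearest tested neighbours and overlapping genes. CP, LOXL2, COMMD1, SCO1, COX11, SLC25A3, STEAP4, DLD, DBT, GATA3, UPK2, KRT7, KRT18, CDH5, PECAM1, VWF, COL1A1 and PDGFRB were named after their values were seen. Canonical transcript lengths were added after the data were seen. The values of 1 list gene are not reported here. The letters of the metal response element were narrowed to its core after matches to a looser pattern had been seen.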

Additional observations from a re-analysis of the deposited data

Results flagged for a closer look

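In groups of 5 libraries, a gap between the extreme library and the rest, relative to the range, passed Dixon's limit in 2 of 24 groups, where chance gives about 1.2. The ATP7A level of T24 replicate 3 was 10.4 CPM, where the remaining T24 libraries had 13.1 to 13.7. Without that library the log2 fold change of ATP7A was 0.96, and ATP7A was still called higher. The share of SLC31A2 in the sum of SLC31A1 and SLC31A2 was 17.0% in T24 replicate 4, against 19.7% to 20.7% in the other T24 libraries.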

How the results depend on the processing

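The number of the 8 genes called higher was 1, and it was 3 without scaling beyond library size (CCS at 0.60 and LRRC8D at 0.58 were added), 2 with upper-quartile normalization (CCS at 0.51) and 3 with no fold change minimum. The number called lower was 0, and 4 with no fold change minimum. Without scaling, the median over all tested genes moves from 0.01 to 0.18, and the calls over all genes from 4027 higher and 4282 lower to 5206 and 3431. With the filter raised to a mean of 100 counts, 4991 of 10686 tested genes were called, in place of 8309 of 16181. With 1 library left out in turn, 1 gene was called higher and 0 lower each time, list genes called numbered 17 to 21 higher and 12 lower (14 to 26 and 10 to 12 over the other settings), and ATP7A stayed at 0.96 to 1.07. SLC31A2 had ranges of -0.04 to 0.15, its sign turning without T24 replicate 4 (-0.00029) or T24R2 replicate 2 (-0.043), and its share differed by 2.21 to 4.36 points, with non-overlapping lines only without T24R2 replicate 1. Other values kept their direction and their call (adjusted p and fold change together) under the alternatives run, which were 3 scalings, DESeq2 with and without shrinkage, limma-voom, 2 count filters, a minimum of 1 on the log2 scale, shares by other lengths, removal of mitochondrial genes and removal of opposite-strand counts. The last could not be run for SLC31A2 and ATOX1, whose overlapping genes have more counts, and SLC31A2 did not pass the mean of 100 counts. Same-numbered replicates share only a number (correlation of deviations from the line means -0.02 to 0.02), and with it as a replicate block ATP7A had a log2 fold change of 1.03, with 1 gene called higher and 0 lower. The number of the 8 genes with an adjusted p under 0.05 was 7, but 4 without scaling (SLC31A1, ATP7B and ATOX1 lost) and 6 with upper-quartile scaling or the filter at 100 counts (ATP7B lost), and 6 to 7 with 1 library left out. Low counts limit the precision of SLC31A2, STEAP2, GCSH, COX16, LIPT2, SLC47A2 and AOC3.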
